A study of Homo sapiens with 49 samples.

Results

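Doxorubicin at 0.00061 µg/mL was compared with no drug in cell lines grown from diffuse large B-cell lymphoma, a fast-growing cancer of mature B lymphocytes. Of the 6 lines, OCI-Ly7, RIVA and U2932 had arrays at 2, 12 and 48 h, and FARAGE, NU-DHL-1 and SU-DHL-5 at 2 and 12 h. An array of low-dose cells was paired with the array of untreated cells of the same line and the same time, which gave 15 pairs: 6 at 2 h, 6 at 12 h and 3 at 48 h. These 30 arrays are part of 49 in the series. The other 19 hold untreated cells at 0 h and cells given 2.5 µg/mL, and they are used below only as a scale. The pairs of a line were averaged first, so that each line counted once and n = 6 lines. The titles name 1 array per line, dose and time. Nothing in the labels says that a line was cultured more than once, so that no error here is known to be a spread between repeated cultures. The pooled and single-time tests used the spread between lines. The limma tests between and within lines used the spread between times of a line. Each limma fit took its spread partly from other genes.

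Doxorubicin is an anthracycline. It slides between the base pairs of DNA and traps topoisomerase II on cut DNA, which leaves double-strand breaks. Cells with intact p53 answer such breaks by raising p53 targets such as CDKN1A and MDM2, and an anthracycline is part of the standard combination treatment of this lymphoma. The question put to the 15 pairs was whether the low dose gave small shifts shared by the lines, which pairs at a single time would be too few to show.

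Messenger RNA was measured as log2 fluorescence intensity on 3' expression arrays. The scale has no absolute unit, so that only differences between arrays are compared. A difference of 1 is 2-fold and a difference of 0.25 is 1.19-fold. The gene at the middle of the ranking had a mean level of 5.79 over the 30 arrays, and genes above it are called "above the median gene" below. All 5 B-cell markers that could be read (MS4A1, CD79A, CD79B, PAX5 and CD22) lay above the median gene, with a median level of 11.05. Their mean per array ran from 10.9 to 11.9 in untreated and in low-dose cells. Most markers of other cell types were low in both: the mean per array over 12 T-cell markers ran from 4.65 to 5.47 in untreated and from 4.65 to 5.54 in low-dose cells, and 2 of the 12 lay above the median gene. Of 9 myeloid and 10 epithelial markers 0 lay above it, of 6 erythroid and 10 fibroblast markers 2 each. Some single markers were high. LCK, of the T-cell list, had a mean level of 9.68 and COL1A1, of the fibroblast list, 7.27. The highest arrays of EPCAM, FBN1 and DCN lay at 9.76, 8.88 and 8.68.

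No gene passed the test in the pooled comparison when 1 probe set stood for each gene. Of 19775 genes, 0 (0%) had an adjusted p under 0.05 in limma, and the smallest adjusted p was 0.0781. The shifts were small as well as uncalled: the median size of the difference was 0.0307, the largest was 0.293, and 0 genes reached 0.5. Some 1209 genes (6.11%) had an unadjusted limma p under 0.05, of which 731 (3.7%) were higher and 478 (2.42%) lower at the low dose. The split depended on how arrays were scaled. It was 753 higher and 443 lower after centring each array on its median, 290 higher and 713 lower after scaling to the hybridization controls, and 1390 higher and 24 lower after scaling to the poly-A controls. Directions below are therefore relative to the other genes of the same arrays, as the deposited normalization sets them.

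**Figure D1:**
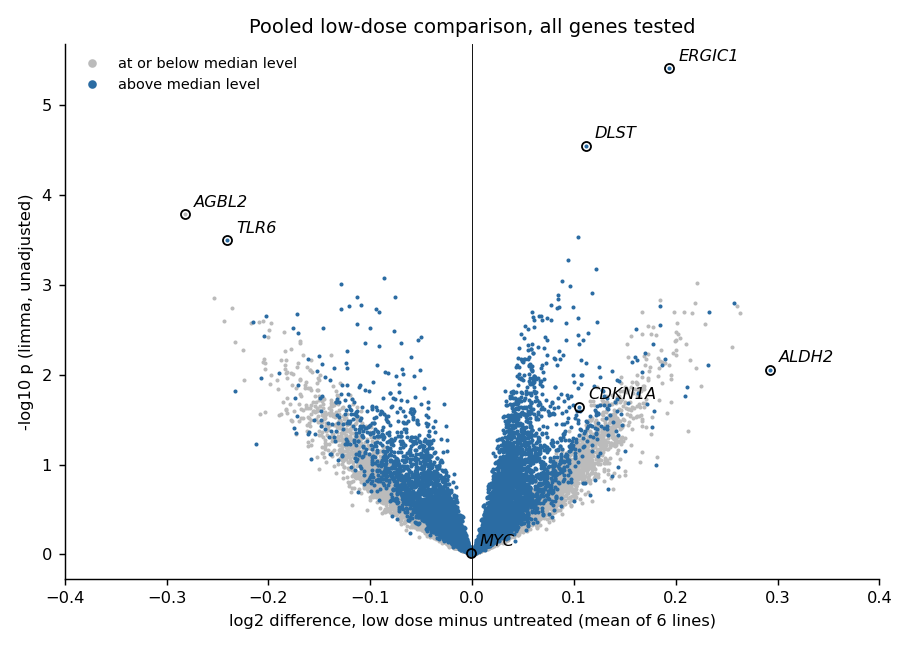
Each point is 1 of the 19775 genes, with the log2 difference between low-dose and untreated cells (mean of 6 lines) on the x axis and the negative log10 of the unadjusted limma p on the y axis. Blue points lie above the median gene and grey points at or below it. ERGIC1, at +0.19, stands highest, no gene lies beyond 0.293 in either direction, and MYC lies at the origin.

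The intervals say how large a mean shift over lines and times could have been missed in a gene's brightest probe set. They hold for the deposited scaling, and do not limit shifts of other probe sets or at single times. The 95% confidence interval lay within ±0.25 for 18913 genes (95.6%) and within ±0.5 for 19774. Among the 9887 genes above the median gene, it lay within ±0.25 for 9780 (98.9%) and within ±0.1, which is 1.07-fold, for 6158 (62.3%). The median distance from the mean to the end of the interval was 0.0607 above the median gene and 0.125 at or below it. These intervals hold for 1 gene at a time, without adjustment over all genes. Shifts larger than these distances also went uncalled with 6 lines. Among them were ERGIC1 at 0.19 and DLST, described below, at 0.11, both above the median gene.

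The low-dose pairs differed by sizes near those between untreated arrays of 1 line at different times. Taken over all genes, the standard deviation (SD) of the paired log2 differences came to 0.193 ± 0.0120 (SD, n = 6 lines) at 2 h, 0.201 ± 0.0209 (n = 6) at 12 h and 0.191 ± 0.00591 (n = 3) at 48 h. Between untreated arrays it was 0.215 ± 0.0277 (n = 6) from 0 to 2 h and 0.246 ± 0.0107 (n = 6) from 2 to 12 h. At 2.5 µg/mL it was 0.272 ± 0.0374 (n = 6) at 2 h and 0.973 ± 0.126 (n = 5) at 12 h, against the same untreated arrays. The low-dose profiles also had little in common. Over all genes, the correlation between the pair differences of 1 line at 2 times had a median of 0.00302 (12 comparisons, from -0.0649 to 0.118), and between the mean differences of 2 lines it had a median of 0.0123 (15 comparisons, from -0.104 to 0.0900). These are correlations across genes, which are not independent, and are given as a description.

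**Figure D2:**
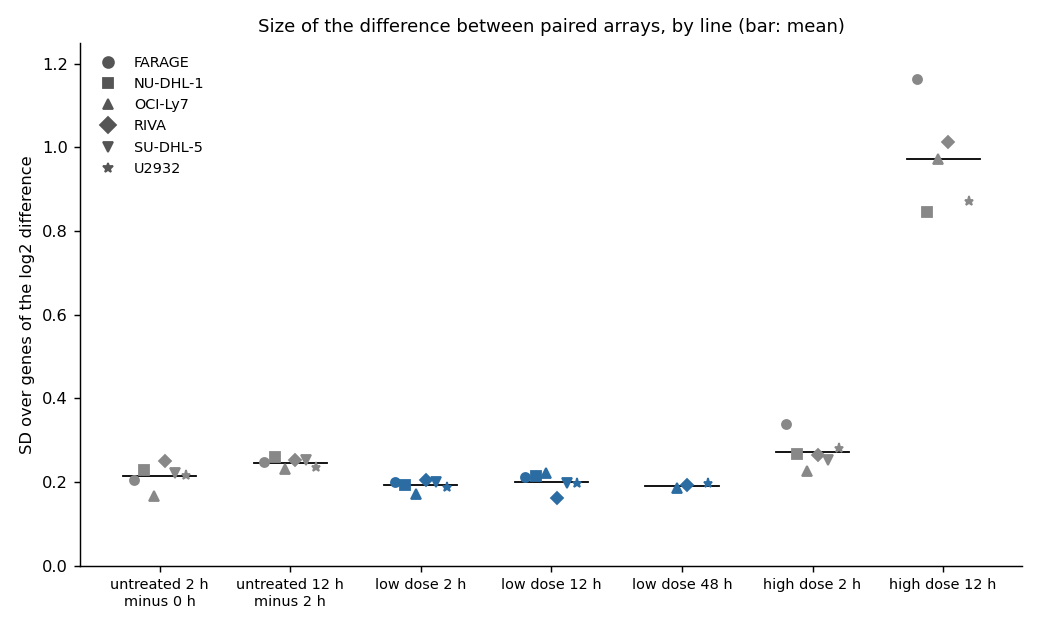
The y axis is the SD, over genes, of log2 differences between 2 arrays of a line, with 1 symbol per line and a bar at the mean. The 3 low-dose groups (blue) lie between 0.163 and 0.221, beside the untreated changes with time, and the 2.5 µg/mL pairs at 12 h lie at 0.846 and above.

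A single probe set passed when all 41097 were tested on their own (0.00243%), and it read PLEKHA2, an adaptor whose pleckstrin homology domain binds a lipid made downstream of PI 3-kinase. This gene falls outside the rule for named genes and was chosen after its values were seen. SE here and below is that of the limma fit, in which a gene's spread is partly taken from genes of like level. It is not the SE of the 6 line values alone. PLEKHA2 has 3 probe sets, and the brightest, which stood for the gene above, differed by 0.010 ± 0.016 (SE, n = 6 lines) at a level of 11.6. The second, at a level of 8.82, had untreated levels at 2 and 12 h of 7.22 and 7.61 in FARAGE, 9.87 and 10.92 in NU-DHL-1 and 6.80 and 6.02 in SU-DHL-5, and low-dose levels of 7.08 and 7.41, 9.55 and 10.85, and 6.56 and 6.01. At 2, 12 and 48 h the untreated levels of this PLEKHA2 probe set were 9.72, 10.56 and 9.40 in OCI-Ly7, 11.64, 10.88 and 10.75 in RIVA and 7.80, 7.30 and 7.51 in U2932, and the low-dose levels were 9.47, 10.14 and 9.26, then 11.37, 10.59 and 10.58, then 7.28, 7.14 and 7.41. All 15 low-dose arrays lay under their untreated partner, by 0.0073 (SU-DHL-5 at 12 h) to 0.52 (U2932 at 2 h), while levels of different lines overlapped.

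The mean difference of that PLEKHA2 probe set was -0.21 ± 0.03 (SE, n = 6 lines), with line means from -0.27 in OCI-Ly7 to -0.12 in SU-DHL-5 and an adjusted p of 0.0105 in limma over all probe sets. The third PLEKHA2 probe set, at a level of 7.70, was also lower in 15 of 15 pairs, by a mean of -0.21 ± 0.04 (adjusted p 0.149). Of all probe sets 4 (0.00973%) were lower in 15 of 15 pairs, and the other two read AGBL2 and DHX34, an RNA helicase, the latter at -0.18. The call for PLEKHA2 rested on the setting, in alternatives added after the data were seen: with 1 line left out the adjusted p ran from 0.0102 to 0.137 and missed 0.05 without NU-DHL-1 (0.0588), OCI-Ly7 (0.126), RIVA (0.118) or U2932 (0.137), and with variances not tied to the level it was 0.812. With line as a random block over the 15 pairs both were called, at 0.00187 and 0.0147. At 2.5 µg/mL, against the same untreated arrays, the brightest, the second and the third probe set of PLEKHA2 differed by -0.095 ± 0.031, -0.48 ± 0.15 and -0.17 ± 0.27 (SD, n = 6 lines) at 2 h and by -1.78 ± 0.50, -2.01 ± 0.60 and -1.79 ± 0.96 (n = 5) at 12 h. Which transcripts the 3 probe sets read apart was not analysed here.

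ERGIC1, which encodes a membrane protein that cycles between the endoplasmic reticulum and the Golgi, came nearest to a call at the level of genes. In untreated cells its level at 2 and 12 h was 10.70 and 10.76 in FARAGE, 11.06 and 9.92 in NU-DHL-1, and 9.16 and 9.85 in SU-DHL-5. At the low dose these levels were 10.77 and 10.84, 11.13 and 10.30, and 9.33 and 9.82. Of these 6 pairs 5 were higher at the low dose, and the exception was SU-DHL-5 at 12 h. At 2, 12 and 48 h the untreated levels of ERGIC1 were 10.73, 9.62 and 10.90 in OCI-Ly7, 8.07, 8.69 and 9.44 in RIVA, and 8.66, 8.99 and 9.42 in U2932. The matching low-dose levels were 10.82, 10.16 and 10.99, then 8.51, 9.11 and 9.64, then 9.05, 9.12 and 9.49, so that all 9 of these pairs were higher. The levels of low-dose and untreated arrays overlapped because lines differed by more than the arrays of a pair did, but the paired difference was above 0 in 14 of 15 pairs and in 6 of 6 lines. The 6 line means of the difference in ERGIC1 had an SD of 0.11. The mean difference in ERGIC1 was 0.19 ± 0.03 (limma SE, n = 6 lines), which is 1.14-fold, with a 95% interval from 0.13 to 0.26 and an adjusted p of 0.0781 in limma. This p depends on the setting: over 21 alternatives it ran from 0.000295 to 1.00, and it was under 0.05 in 8 of them, among them the fit without FARAGE (0.0203) and the fit without SU-DHL-5 (0.0262). The gene has 4 probe sets, and the others differed by 0.16, 0.069 and 0.038, the last of them at a level of 2.94, below the median gene. Untreated ERGIC1 in NU-DHL-1 moved from 11.06 at 2 h to 9.92 at 12 h, a larger step than any pair difference, the largest of which was 0.54. At 2.5 µg/mL the mean difference of ERGIC1 was 0.22 ± 0.12 (SD, n = 6 lines) at 2 h and -0.50 ± 0.67 (n = 5) at 12 h.

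Higher in 15 of 15 pairs were 2 genes (0.0101% of all tested), DLST and AP1S1, and lower in 15 of 15 pairs was 1 gene (0.00506%), AGBL2. None of them was called. DLST encodes the succinyltransferase subunit of the 2-oxoglutarate dehydrogenase complex of the citric acid cycle. Its pair differences ran from 0.000312 (OCI-Ly7 at 2 h) to 0.245 (RIVA at 48 h), and its line means from 0.0808 in SU-DHL-5 to 0.168 in RIVA. The mean difference in DLST was 0.11 ± 0.02 (SE, n = 6), with an adjusted p of 0.282 in limma, which was under 0.05 in 1 of 21 alternatives. AP1S1 encodes a small subunit of the clathrin adaptor AP-1, which sorts cargo at the trans-Golgi network. Its pair differences ran from 0.0325 (U2932 at 12 h) to 0.453 (NU-DHL-1 at 12 h), with a mean of 0.12 ± 0.03 (SE, n = 6) and an adjusted p of 0.804, and its other probe sets gave 0.097 and 0.11. AGBL2 encodes a cytosolic carboxypeptidase that acts on tubulin. Its pair differences ran from -0.60 (NU-DHL-1 at 12 h) to -0.0020 (RIVA at 48 h), with a mean of -0.28 ± 0.06 (SE, n = 6), the lowest of all genes, and an adjusted p of 0.804. AGBL2 lay at 3.66, well under the median gene, and the untreated array of NU-DHL-1 at 0 h (2.97) lay below both low-dose arrays of that line (3.41 and 3.21).

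**Figure D3:**
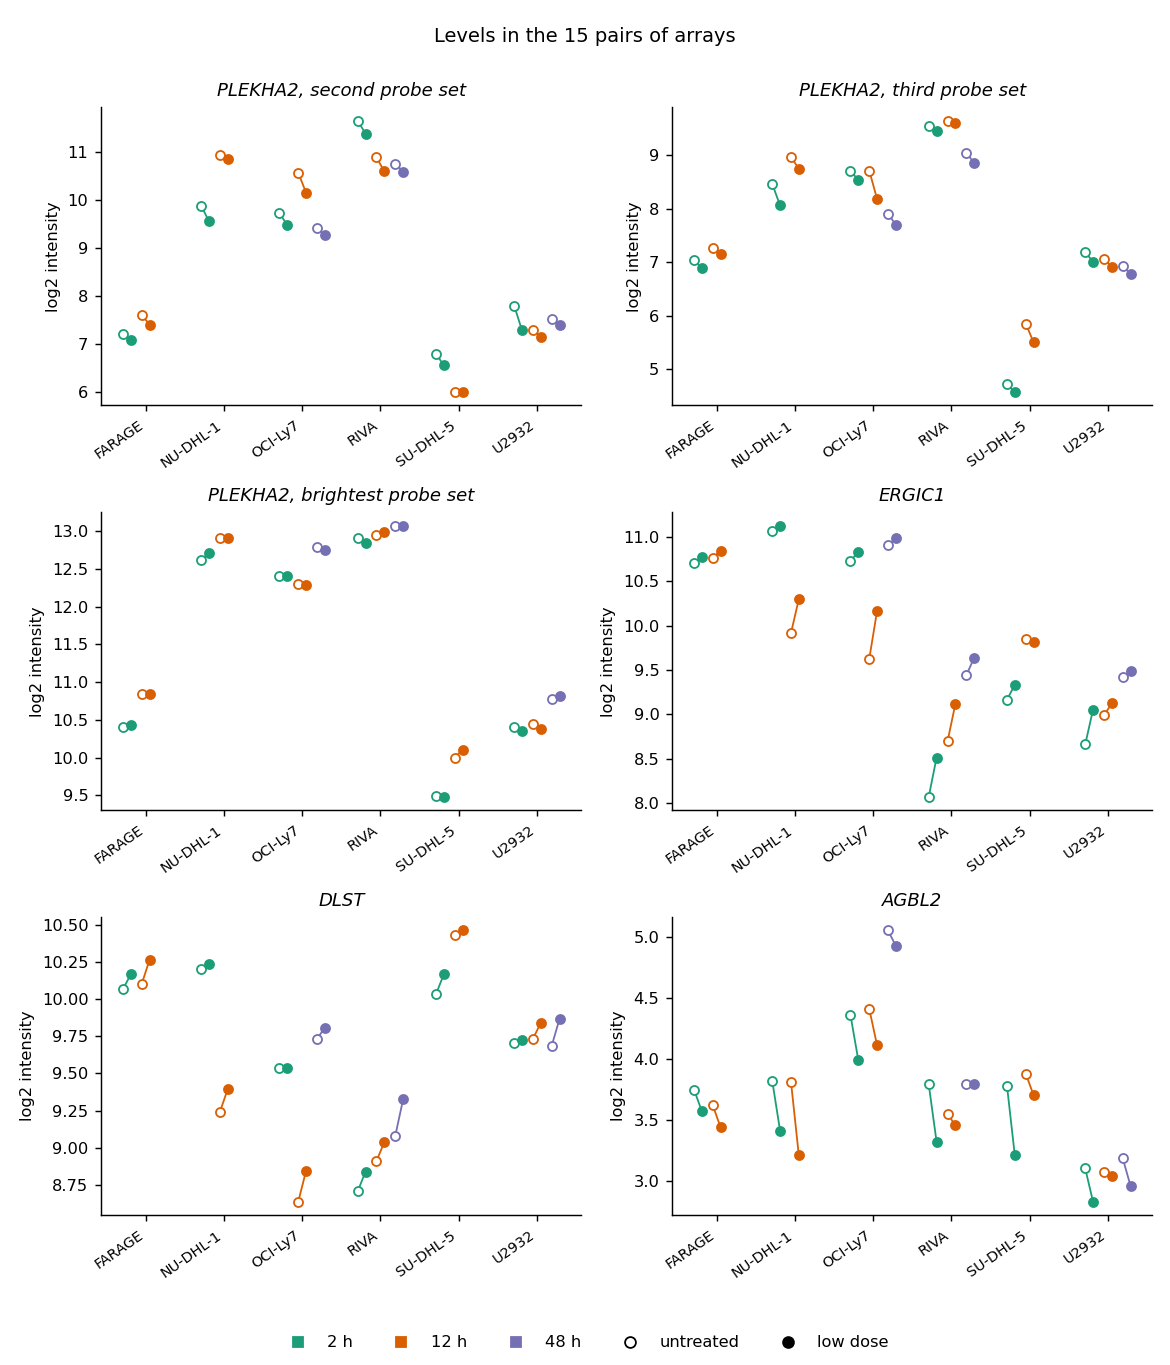
Each panel shows the log2 intensity of 1 gene or probe set in the 15 pairs, with the line on the x axis, the time by colour, open symbols for untreated and filled symbols for low-dose arrays. The second and the third probe set of PLEKHA2 and AGBL2 are lower at the low dose in all 15 pairs, the brightest PLEKHA2 probe set in 7, ERGIC1 is higher in 14 and DLST in all 15, while levels differ between lines by more than within any pair.

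A total of 466 genes (2.36%) were higher in 6 of 6 lines and 274 (1.39%) were lower in 6 of 6 lines. The genes named next are those of either direction above the median gene with the smallest p. None was called, and apart from ERGIC1 and DLST each had an adjusted p of 0.804. On the higher side, genes of protein and RNA handling were TUBB4B, a beta-tubulin whose probe sets can bind related transcripts (0.094 ± 0.022, SE), PFDN1, a subunit of the prefoldin chaperone (0.084 ± 0.022), APH1A, a subunit of gamma-secretase (0.10 ± 0.02), CUL4A, a ubiquitin ligase scaffold (0.086 ± 0.023), WDR43, a ribosome assembly factor (0.088 ± 0.022), NSUN2, an RNA methyltransferase (0.078 ± 0.021), and PRPF8, the central protein of the spliceosome (0.059 ± 0.016). SAMHD1, which breaks down deoxynucleotides, differed by 0.085 ± 0.022, and PCCA, a subunit of mitochondrial propionyl-CoA carboxylase, by 0.26 ± 0.07 at a level of 5.795, close to the median gene. In PRPF8 the line means were close to each other, with an SD of 0.017, and in PCCA they ran from 0.0746 in NU-DHL-1 to 0.616 in SU-DHL-5.

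On the lower side stood TLR6, a receptor for bacterial lipopeptides (-0.24 ± 0.05), C1RL, a complement-type protease (-0.21 ± 0.06), TMEM175, a lysosomal ion channel (-0.18 ± 0.05), and MIR210HG, the host transcript of the hypoxia-induced miR-210 (-0.17 ± 0.05). CREBRF, a regulator of CREB3, differed by -0.15 ± 0.04, LMF2, of the lipase maturation factor family, by -0.13 ± 0.03, COG5, a Golgi tethering subunit, by -0.11 ± 0.03, RECQL5, a DNA helicase, by -0.11 ± 0.03, and C6orf89 by -0.11 ± 0.03. MATR3, a nuclear RNA-binding protein, differed by -0.094 ± 0.026, MXI1, which competes with MYC for the partner MAX, by -0.091 ± 0.025, and IVNS1ABP by -0.076 ± 0.020. Probe sets of 1 gene disagreed in several of these. The second probe set of LMF2 gave 0.015, the other 4 of C6orf89 gave 0.014 to 0.031, the other 2 of COG5 gave 0.036 and -0.0026, and the other 4 of RECQL5 gave -0.035 to 0.045. The second probe set of TLR6 gave -0.035, that of C1RL -0.061, and the other 3 of IVNS1ABP -0.084 to -0.0037. On the higher side, those of SAMHD1 gave -0.052 to 0.073, those of CUL4A -0.075 to 0.048 and those of APH1A -0.044 to 0.051. The differences printed for these 10 genes are those of the brightest probe set alone. The second probe set of MIR210HG gave -0.13 and that of CREBRF -0.12, while the 3 dimmer ones of CREBRF gave -0.047 to -0.028.

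None of the drug's own targets or of the genes that answer DNA breaks was called over the lines. TOP2A and TOP2B, the 2 topoisomerase II enzymes, differed by 0.020 ± 0.027 and -0.013 ± 0.016. Among 30 p53 targets measured, 0 were called, 1 had an unadjusted p under 0.05 (CDKN1A, at 0.11 ± 0.04 and at 0.043 without OCI-Ly7, whose own value is given below), the median difference was 0.00373 beside 0.00484 over all genes, and all 30 intervals lay within ±0.25. MDM2, the ubiquitin ligase that p53 induces against itself, differed by 0.0035 ± 0.0230 (SE), BAX, a pore-forming pro-death protein, by 0.0039 ± 0.0337, and FAS, a death receptor, by -0.055 ± 0.037. The other probe sets of FAS gave -0.037 to 0.045. The one with 0.0019 was brighter over these 30 arrays, at 7.59 against 7.44. Among 32 genes of DNA damage checkpoints and repair, 0 were called and 0 had an unadjusted p under 0.05. Their differences ran from -0.035 (LIG3, a DNA ligase) to 0.047 (RAD18, a ubiquitin ligase of damage tolerance). Of 23 genes of doxorubicin targets, transport and metabolism, 1 had an unadjusted p under 0.05 (SOD1, superoxide dismutase, at 0.033 ± 0.015), and the efflux pumps ABCB1 and ABCC1 differed by -0.017 ± 0.059 and -0.0096 ± 0.0228, ABCB1 at a level of 3.33, under the median gene.

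Stress and B-cell regulators were set beside their values at 2.5 µg/mL, and 0 were called at the low dose. ATF3, a stress transcription factor, had a mean difference of 3.86 ± 1.35 (SD, n = 5 lines) at 12 h of 2.5 µg/mL and of 0.0050 ± 0.0463 (SE, n = 6) in the pooled low-dose pairs. For JUN, an AP-1 subunit, these were 2.79 ± 1.15 and -0.041 ± 0.060. MYC, the growth-promoting transcription factor, stood at -1.15 ± 0.82 (SD, n = 6) after 2 h of 2.5 µg/mL and at -0.0011 ± 0.0202 in the low-dose pairs. BCL6, the germinal centre repressor, stood at -1.09 ± 1.76 (SD, n = 5) after 12 h of 2.5 µg/mL, a spread larger than the mean, and at -0.0072 ± 0.0139 in the low-dose pairs. Its other probe sets, at levels of 8.84 and 8.72, gave -0.082 and 0.046 in the low-dose pairs, the first with an unadjusted limma p under 0.05. Both doses were set against the same untreated arrays, so that these values share their controls and no likeness between the doses is drawn from them. Among 19 BCL2 family genes 0 were called and 1 had an unadjusted p under 0.05, BCL2L11, a pro-death member (0.053 ± 0.023). Its second probe set, at a level of 8.41, went the other way by -0.10, also with an unadjusted p under 0.05, and the other 5 gave -0.090 to 0.087, so that no direction is given for BCL2L11. Of 32 immediate early genes, which respond within minutes to growth signals and stress, DUSP2, a MAP kinase phosphatase, had 0.059 ± 0.021, and CCN2, a matrix protein, had -0.14 ± 0.05. CCN2 lay at a level of 3.17, well under the median gene.

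Over the 23 gene lists described, 600 of 673 listed genes were measured and 0 were called. Of the 600, 68 (11.3%) had an unadjusted p under 0.05, beside 6.11% of all genes. List members lie at higher levels than most genes, where errors are smaller. Of the 512 members above the median gene 63 (12.3%) had such a p, 51 higher and 12 lower, beside 7.06% of all 9887 genes there, of which 463 were higher and 235 lower. The lists were chosen with earlier results of these data known, and their members move together, so that no test is attached to this share. The list medians ran from -0.019 to 0.034. As deposited 17 of the 23 medians were above 0, but 10 were after scaling to the hybridization controls and 23 after scaling to the poly-A controls.

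Growth and division genes were among those with such a p. Counts here and in the next paragraphs stand beside 7.06% of all genes above the median gene, 463 of them higher and 235 lower. Of 33 genes of G2 and mitosis 7 had an unadjusted p under 0.05, all higher, and the list median was 0.021, with line medians from 0.0056 to 0.053. After scaling to the hybridization controls that list median was 0.0096. CDK1, the kinase that starts mitosis, differed by 0.061 ± 0.017 (SE, n = 6) and was higher in 5 of 6 lines, and AURKA, a spindle kinase, by 0.060 ± 0.019. MKI67, the proliferation antigen, differed by -0.0025 ± 0.0227. Of 33 genes of G1/S and DNA replication, 1 was higher at that p (TYMS, thymidylate synthase, at 0.045 ± 0.015) and 4 were lower, among them CDCA7 at -0.053 ± 0.016. All intervals of both lists lay within ±0.25. Of 28 ribosome biogenesis genes 5 were higher at that p and 0 lower, with WDR43 and NOP58, a small nucleolar ribonucleoprotein, at 0.088 ± 0.022 and 0.046 ± 0.016. Of 36 ribosomal protein genes 0 had such a p, and their differences ran only from -0.025 (RPL34) to 0.026 (RPL3). Of 38 replication-dependent histone genes, 1 was higher at that p (H2BC12, at 0.055 ± 0.019), and the list median, -0.019, was the lowest of the lists.

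Stress and metabolic genes were a further part of them. Of 19 heat shock genes 5 were higher at that p and 0 lower, and the list had the highest median, 0.034. After scaling to the hybridization controls that median was 0.023. CACYBP differed by 0.051 ± 0.015 and HSPE1, the mitochondrial co-chaperonin, by 0.051 ± 0.017, each higher in 6 of 6 lines. Of 31 genes of the respiratory chain and ATP synthase 6 were higher at that p, with NDUFV2, a complex I subunit, at 0.060 ± 0.017, and of 20 sterol genes 4 were higher, with HMGCS1, an early enzyme of cholesterol synthesis, at 0.12 ± 0.03 and IDI1, a later one, at 0.051 ± 0.015. Of 23 antioxidant and iron genes 4 were higher, with GSR, glutathione reductase, at 0.080 ± 0.026. Of 25 unfolded protein response genes 3 were higher and 1 lower, DNAJC3 at 0.073 ± 0.024 and HSP90B1, an endoplasmic reticulum chaperone, at -0.12 ± 0.03. Of 27 genes of the ATF4 and amino acid response 3 were higher, with ATF5, a transcription factor, at 0.10 ± 0.03, and of 6 genes tied to culture temperature 2 were, with CIRBP, a cold-induced RNA-binding protein, at 0.050 ± 0.017. Of 28 hypoxia and glycolysis genes 2 were lower, MXI1 and ADM, the vasodilator adrenomedullin, the latter at -0.16 ± 0.07. None of these genes passed after adjustment.

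Immune and B-cell genes were likewise not called. Of 30 type I interferon genes 2 were lower at that p, DDX60 at -0.20 ± 0.07 and IFIT5 at -0.16 ± 0.07. DDX60 lay at a level of 3.14, well under the median gene, and the second probe set of IFIT5 gave -0.0059. Of 28 NF-kB targets 3 were higher and 2 lower, TNFAIP3, an inhibitor of NF-kB signalling, at -0.13 ± 0.06 and TNIP1, its partner, at -0.045 ± 0.020. Of 32 genes of B-cell identity and the B-cell receptor 3 were higher and 1 lower, with LYN, a receptor-proximal kinase, at 0.063 ± 0.025 and SPIB, a B-lineage transcription factor, at 0.044 ± 0.018, while PAX5 stood at 0.0020 ± 0.0155. Of 20 germinal centre genes 1 was higher (MYBL1, 0.14 ± 0.05), and of 28 genes of activated B cells and plasma cells 4 were, with SDC1, the plasma cell syndecan, at 0.20 ± 0.06 and TNFRSF17, the receptor BCMA, at 0.21 ± 0.08. SDC1 lay at a level of 5.25, under the median gene, and its second probe set gave 0.019.

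Several of these list values rested on 1 line. Without NU-DHL-1 the mean was 0.058 for MYBL1, 0.073 for TNFRSF17, -0.033 for TNFAIP3 and 0.061 for ATF5. Without FARAGE it was -0.054 for ADM and -0.061 for IFIT5. It was 0.035 for LYN without SU-DHL-5, 0.033 for HSPE1 without RIVA and 0.020 for SOD1 without U2932. Each of these moves was by over 1.5 times. In some list genes, a further probe set above the median gene had the opposite sign: -0.037 in GSR, -0.031 in ATF5, -0.0051 in IDI1, -0.0053 and -0.029 in LYN, -0.052 and -0.046 in CIRBP, and -0.037 and -0.21 in DNAJC3. The second-brightest probe set gave only 0.0022 in CACYBP, 0.010 in CDK1, 0.0034 in IDI1, 0.0026 in ATF5 and 0.0055 in SPIB. In AURKA and HMGCS1 it gave 0.056 and 0.068. The further probe sets of MKI67 gave 0.031 to 0.051.

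**Figure D4:**
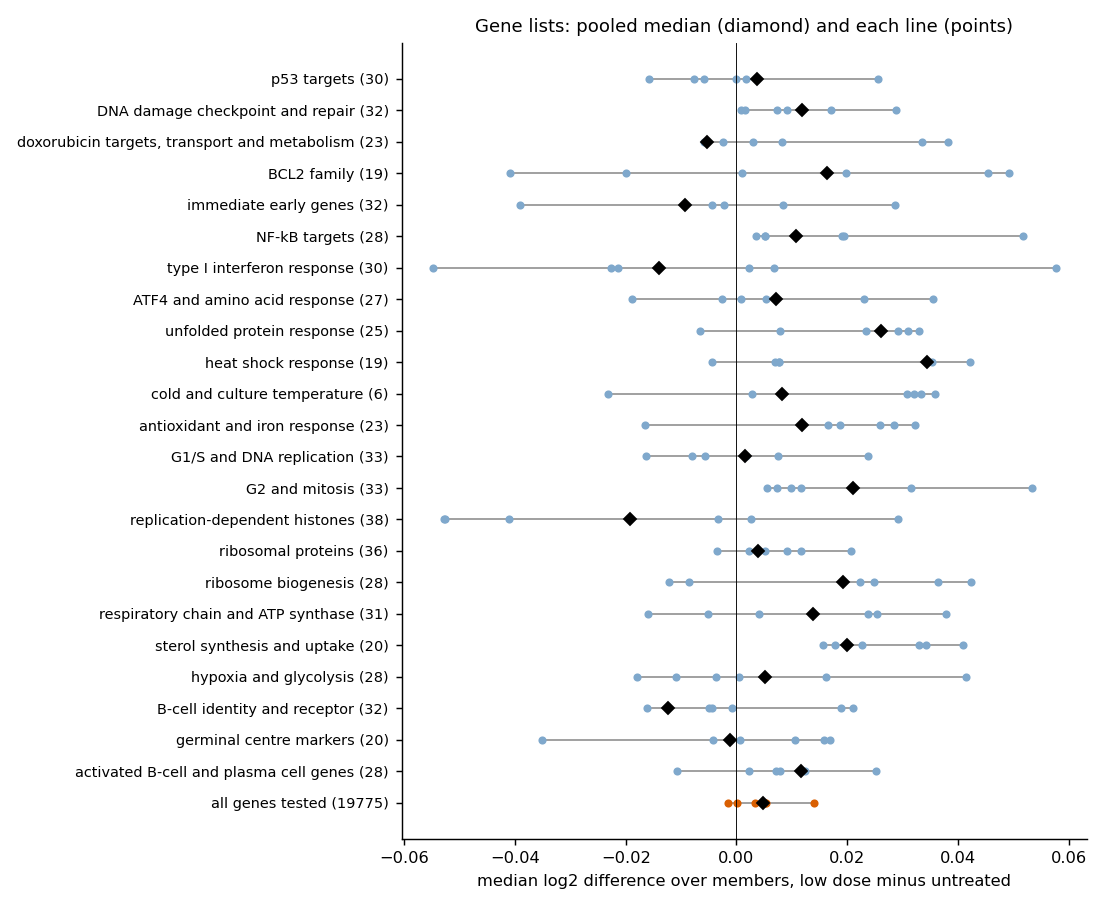
Each row is a gene list, with the number of members measured in brackets. The black diamond is the median over members of the pooled log2 difference, the points are the same median in each of the 6 lines, and the last row (orange) is all genes tested. Pooled medians lie between -0.019 and 0.034, and most lists have lines on both sides of 0.

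At single times no gene was called either. The count was 0 of 19775 (0%) at 2 h, with a smallest adjusted p of 0.999 in limma and 833 genes at an unadjusted p under 0.05. At 12 h it was 0 (0%), with a smallest adjusted p of 0.552 and 1472 such genes, and at 48 h 0 (0%), with 0.081 and 1451. The 48 h comparison rests on 3 lines and on the untreated and low-dose arrays of each, and without U2932 its count was 171 and without RIVA 12, each from 2 lines whose spread was mostly borrowed from other genes. The largest sizes were 0.448 at 2 h, 0.486 at 12 h and 0.81 at 48 h. The 3 genes with the smallest p at 2 h were ARPC3, a subunit of the actin-nucleating Arp2/3 complex (-0.14 at 2 h), ERGIC1 (0.21) and AGBL2 (-0.38). At 12 h they were LOC105369477 (-0.49), GDPGP1, a GDP-glucose phosphorylase (-0.47), and LMF2 (-0.23), the first pair below the median gene. At 48 h they were WDR43 (0.36), UBN1, a histone chaperone subunit (-0.39), and GNG7, a G-protein subunit (0.58). WDR43 differed at 48 h in each of the 3 lines, with untreated levels of 8.36, 7.97 and 8.998 and low-dose levels of 8.73, 8.26 and 9.40 in OCI-Ly7, RIVA and U2932. At 2 h its mean difference was 0.0011. The difference itself between the effects at 12 and 2 h was called in 0 genes (0%), with a smallest adjusted p of 0.59 and 1317 genes at an unadjusted p under 0.05. The smallest p there belonged to ZDBF2 (0.099 at 2 h and -0.22 at 12 h), TRIM28, a co-repressor of retroelements (0.098 and -0.11), and GDPGP1.

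The lines differed from each other in few genes. In a model of the 15 pair differences with a mean for each line, where the times of a line served as repeats, 9 of 19775 genes (0.0455%) had an adjusted p under 0.05 in the limma F test between lines: CDK6, ZNF43, PAG1, TNFRSF17, ALDH2, FOXP1, PAX8-AS1, TCEAL3 and SYNE2. In each of them the lines that stood apart had the gene at a level far under that of at least 3 other lines. CDK6, a G1 kinase, lay between 8.46 and 11.01 in the other 5 lines and at 5.19 in NU-DHL-1. In NU-DHL-1 the untreated levels of CDK6 were 5.43 at 0 h, 5.66 at 2 h and 5.67 at 12 h, and the low-dose levels were 4.73 at 2 h and 4.71 at 12 h. Both low-dose arrays lay under all 3 untreated arrays, a difference of -0.95, and the arrays of 2.5 µg/mL lay at 5.20 at 2 h and 6.68 at 12 h. The next 2 probe sets of CDK6 gave -0.31 and -0.46 in NU-DHL-1, and the 4 dimmest gave -0.15 to 0.27.

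ZNF43, a zinc finger protein read by 1 probe set of a kind that can bind related transcripts, went opposite ways in 2 lines. In FARAGE its untreated levels were 5.77, 5.72 and 5.78 at 0, 2 and 12 h, and the low-dose levels 6.63 and 6.76 at 2 and 12 h, a difference of 0.94. In NU-DHL-1 the untreated levels of ZNF43 were 5.54, 5.71 and 5.72 and the low-dose levels 5.25 and 5.17, a difference of -0.51. The other 4 lines had it between 7.29 and 9.21, with differences from -0.16 to 0.050. PAG1, an adaptor that holds back Src kinases, lay at 3.20 in RIVA and between 9.44 and 11.4 elsewhere. In RIVA the untreated levels of PAG1 were 3.57, 3.92 and 3.18 and the low-dose levels 2.64, 3.27 and 2.61 at 2, 12 and 48 h, a difference of -0.72, and of its other probe sets 1 gave -0.81 and 1 gave 0.015. TNFRSF17 lay at 3.32 in NU-DHL-1, where untreated arrays had 3.14 and 2.61 and low-dose arrays 3.93 and 3.61, and between 7.57 and 12.8 elsewhere. ALDH2, an aldehyde dehydrogenase, was higher in NU-DHL-1 (3.64 and 3.84 untreated, 4.87 and 4.56 at the low dose) and in SU-DHL-5 (3.68 and 3.09 untreated, 4.31 and 3.89), the 2 lines where it was low, and differed by -0.039 to 0.087 in the other 4. FOXP1, a B-cell transcription factor, lay at 4.94 in FARAGE, where it had 4.56 and 4.60 in untreated and 4.99 and 5.62 in low-dose cells, and at 10.2 or above elsewhere, with differences of at most 0.019. The next 2 probe sets of FOXP1 gave 0.67 and 0.69 in FARAGE, and the 5 dimmest gave -0.21 to 0.31.

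**Figure D5:**
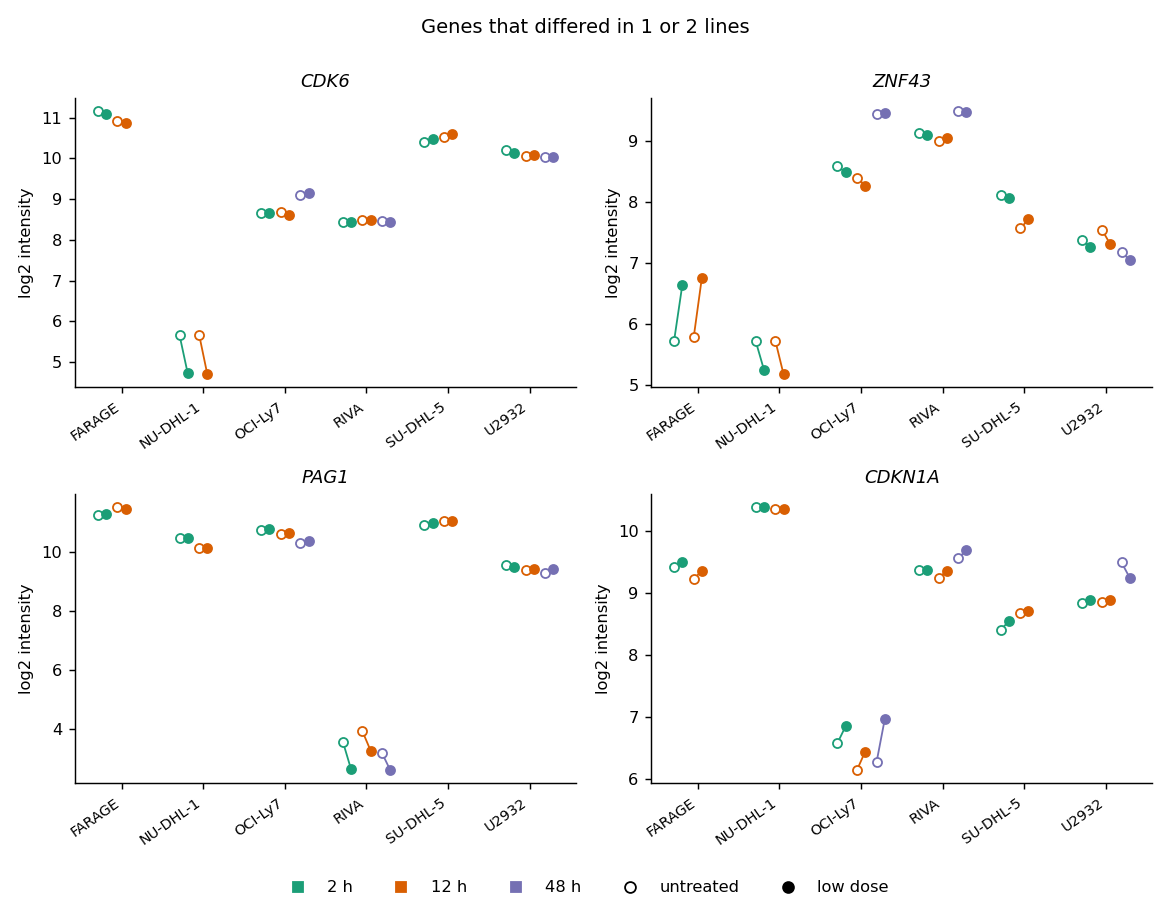
Each panel shows the log2 intensity of 1 gene by line, with times by colour, open symbols for untreated and filled symbols for low-dose arrays. CDK6 in NU-DHL-1, ZNF43 in FARAGE and NU-DHL-1, PAG1 in RIVA and CDKN1A in OCI-Ly7 differ between the open and filled symbol of each time, in each case at a lower level than that of most other lines.

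Within single lines, the same model called 13 genes in FARAGE (0.0657%), 37 in NU-DHL-1 (0.187%), 6 in OCI-Ly7 (0.0303%), 3 in RIVA (0.0152%), 16 in SU-DHL-5 (0.0809%) and 0 in U2932 (0%). That is 75 calls in all, of which 13 concerned a gene above the median gene of that line. The model takes a gene's spread partly from genes of like mean level over all lines, and spread was larger at low levels, so that a gene bright in other lines and dim in the line at hand was given a smaller spread than dim genes show. When the F test was run only on the 8171 genes above the median gene in each of the 6 lines, an alternative added after the data were seen, 0 of them were called, and 276 had an unadjusted p under 0.05. None of the 9 genes above is among those 8171. Without the tie of spread to level 2 genes were called between lines, both among the 9.

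Adjusted only over genes above the median gene of the line at hand, also added after the data were seen, the calls were 3 in FARAGE, 0 in NU-DHL-1, 1 in OCI-Ly7, 0 in RIVA, 4 in SU-DHL-5 and 1 in U2932. The genes were ZNF43 (0.94), HLA-DRB1, an antigen-presenting chain (0.41), and LEF1, a Wnt pathway transcription factor (-0.40), in FARAGE, GUSBP11 (0.47), MYH11 (0.72), PARD3 (-0.94) and WDR91 (-0.60) in SU-DHL-5, and PLEKHO1 (-0.35) in U2932. The spread was still that of the same fit, so that its limit for genes dim in the line at hand remains. In FARAGE the levels were 6.22 for ZNF43, 6.59 for HLA-DRB1 and 6.12 for LEF1, against 7.66, 10.43 and 9.88 over all lines. In SU-DHL-5, MYH11 (5.89 against 8.03) and WDR91 (5.74 against 7.09) were also dimmer. There GUSBP11 (10.81 against 10.36) and PARD3 (6.98 against 6.11) were brighter. HLA-DRB1 and GUSBP11 have near-identical copies in the genome that can share probes, and the other probe sets of MYH11 and PARD3 gave -0.12 to 0.44 and -0.069 to 0.18 in SU-DHL-5.

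In OCI-Ly7 this gene was CDKN1A, the p21 inhibitor of cyclin-dependent kinases. OCI-Ly7 had the lowest level of CDKN1A among the lines, at 6.54, and the line's median gene lay at 5.78. Its untreated levels were 7.17 at 0 h, 6.58 at 2 h, 6.15 at 12 h and 6.27 at 48 h, and the low-dose levels were 6.85, 6.44 and 6.96 at 2, 12 and 48 h. The paired differences were 0.27, 0.30 and 0.69, with a mean of 0.42 ± 0.07 (SE of the limma fit) and an adjusted p of 0.0293 in limma over all genes. This SE takes its spread from the pairs of all lines and from other genes, and is not that of these 3 pairs alone. All 3 low-dose arrays lay above the untreated array of their own time, and all 3 lay under the untreated array of 0 h. In the other 5 lines the mean difference of CDKN1A ran from -0.056 in U2932 to 0.10 in FARAGE, and its difference between lines was not called (adjusted p of 0.365 in the limma F test). Over the 6 lines the mean was 0.11 ± 0.04 (SE), with an adjusted p of 0.804. At 2.5 µg/mL CDKN1A in OCI-Ly7 lay at 6.65 at 2 h and 5.93 at 12 h.

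The Affymetrix control transcripts were compared in the same way. The poly-A transcripts added to the RNA before labelling differed by -0.10 ± 0.14 (SD, n = 6 lines; exact two-sided sign-flip permutation p = 0.0938, adjusted over 4 measures 0.188) and were higher in 1 of 6 lines. The hybridization controls differed by 0.016 ± 0.044 (exact permutation p = 0.344), and the 3' to 5' difference of ACTB by 0.0053 ± 0.1185 (exact permutation p = 0.969). The 3' to 5' difference of GAPDH differed by 0.014 ± 0.005 and was higher in 6 of 6 lines (exact permutation p = 0.0313, the smallest that 6 lines allow, and 0.125 after adjustment). Its part in the gene differences above was not tested.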

How the data were processed

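The deposited values are log2 intensities of 54675 probe sets on 49 arrays, and the submitters' processing notes name RMA, affy and R 3.0.2 for them. RMA corrects background, quantile normalizes arrays against each other and summarises each probe set, so that shifts common to all genes are removed. No genome build is named in the sources used here. Values ran from 1.71 to 14.8, and array medians from 4.84 to 5.04. Arrays hold no read counts, and precision is set by how many there are.

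Probe sets with 1 gene in the platform annotation were kept (41097; 1801 listed several genes and 11777 none), and 41043 of these were matched to RefSeq (assembly GRCh38.p14) for current symbols. Of 19775 genes, 10523 had more than 1 probe set and took the one with the highest mean over all arrays. Titles gave each sample its dose and time. Each line's differences of low-dose from untreated arrays were averaged and tested against 0 with limma 3.58.1 (R 4.3.3, and data.table in version 1.17.8), with variances following the level, Benjamini-Hochberg adjustment over all genes and a threshold of 0.05. The SEs and intervals printed are those of the limma fits, with the spread partly taken from other genes. Lines were compared with an F test over 15 pair differences with 9 residual degrees of freedom. The same cell line is on both sides of a pair, which is where the pairing comes from. Control transcripts were compared by exact sign-flip tests. The pooled and between-line fits were also run on simulated differences, drawn as independent normal noise with added shifts. These hold no correlation between genes or within lines, so that they do not show how the fits behave on real arrays.

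Named genes were, per direction, the 12 with the smallest p of one sign in all 6 lines and above the median gene. For single times they were the 3 smallest p, between lines the 8 smallest p, per line the 3 largest and 3 smallest means, and per list the 2 smallest p, beside single genes of interest. PLEKHA2, DHX34, HLA-DRB1, LEF1, GUSBP11, WDR91 and PLEKHO1 fell outside this rule and were chosen after their values were seen, and the ends of list ranges were named as such. The members and lists were chosen with earlier results of these data known. Alternatives covered the weighting of pairs and times, the block, the variance model, the probe set rule, the level filter, array scaling and leaving out each line.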

Additional observations from a re-analysis of the deposited data

Results flagged for a closer look

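In 10 of 97 values examined, 1 line lay far from the other 5. The criterion (Dixon's, at 95%) would by chance pick out about 1 in 20 groups, but these genes were named partly for their small p, so that the share is given as a description. In OCI-Ly7, CDKN1A stood at 0.42 (next line 0.10) and COG5 at -0.24 (next -0.13). In NU-DHL-1, TNFRSF17 stood at 0.90 (next 0.19), MYBL1 at 0.53 (next 0.11), TNFAIP3 at -0.59 (next -0.15) and RPL37 at -0.0025 (next 0.019). In FARAGE, IFIT5 stood at -0.66 (next -0.20) and CDCA7 at 0.0040 (next -0.055). BAX stood at 0.16 in U2932 (next 0.020) and CIRBP at 0.00043 in SU-DHL-5 (next 0.050). In RPL37, CDCA7 and CIRBP the line that stood apart was the one nearest to 0.

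The limma F test between lines called 2 genes without the tie of spread to level. It called 0 of the 8171 genes above the median gene in each line. In the main fit, with the times of a line as repeats, it called 9 genes. The adjusted p was 2.96e-07 for CDK6, 1.62e-06 for ZNF43, 2.59e-05 for PAG1 and for TNFRSF17, 4.72e-05 for ALDH2, 0.00577 for FOXP1, 0.00759 for PAX8-AS1, 0.0118 for TCEAL3 and 0.0278 for SYNE2. NU-DHL-1 was the line with the largest difference in CDK6, TNFRSF17, ALDH2, PAX8-AS1, TCEAL3 and SYNE2, and the gene lay at 3.32 to 5.19 there, under that line's median gene of 5.74. In TCEAL3 the difference in NU-DHL-1 was 0.92, in PAX8-AS1 -0.95 and in SYNE2 0.45.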

How the results depend on the processing

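The pooled count of 0 remained 0 with pairs of 2 and 12 h only, variances without a trend, robust variances, means over probe sets, genes above the median gene only, centred arrays, arrays scaled to the hybridization controls and, added after the data were seen, pairs of 12 and 48 h only. It was 1 with lines weighted by their number of pairs, with the 3 lines that have all times, with the 15 pairs as if independent and, also added later, with genes above the median gene in each line; it was 2 with line as a random block over the 15 pairs (ERGIC1 and DLST). In each of these fits that called 1 gene it was ERGIC1. With every probe set tested on its own 1 was called (PLEKHA2, lower). Scaling to the poly-A controls gave 5, in a fit that took the spread from the level alone, ERGIC1, TNFRSF17, ALDH2, MYH11 and S100A10. Without the pairing (no replicate block) the count was 0 in the pooled comparison and at 2, 12 and 48 h. Leaving out a line in turn gave 0 to 1 (1 without FARAGE and 1 without SU-DHL-5). The counts at 2 h, at 12 h and for 12 h minus 2 h were 0 under every alternative run. At 48 h the count was 1 with centred arrays and 0 to 171 when a line was left out (0 without OCI-Ly7, 12 without RIVA and 171 without U2932). Between lines the count of 9 became 2 without a trend, 0 among genes above the median gene in each line, and 6 to 15 with a line left out (15 without OCI-Ly7). Without a trend the counts within lines were 1 in FARAGE, 14 in NU-DHL-1 and 1 in OCI-Ly7. The GAPDH 3' to 5' difference was 0.0124 to 0.0148 with a line left out, where 5 lines cannot give an exact p under 0.0625. Of 1882 values under alternatives of the 91 genes named for the pooled comparison, a list or singly (ALDH2, MYH11 and S100A10, named for single lines, are not among them), 0 reversed a call, 10 passed the threshold (8 of ERGIC1, 1 of DLST, 1 of TNFRSF17) and 62 moved by over 1 SD between lines without a call. Genes at or below the median gene had wider intervals, which limits what their differences can show.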
